A study of Mus musculus with 20 samples.

Results

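Gene expression after cisplatin and KW6002 given together (cotreatment) was compared with that after vehicle in subcutaneous LLC1 tumors. The comparison was defined by treatment alone and took in 10 of the 20 tumors of the experiment, namely the 5 labeled as given cisplatin with KW6002 and the 5 labeled vehicle. LLC1 is a Lewis lung carcinoma cell line of C57BL/6 mice, and the cells were injected with Matrigel under the skin of the right flank of male C57BL/6J mice aged 8 to 10 weeks. Mice were assigned at random to their group once the tumor had reached 100 mm3. All tumors of both groups therefore shared the cell line, the site and the carrier gel, and each library is a mixture of carcinoma cells with the stroma, vessels and leukocytes of the host. The remaining 10 tumors, given cisplatin alone or KW6002 alone, entered the fit and are quoted only where their values stand beside those of cotreatment.

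Cisplatin binds to purine bases and links them within and between DNA strands. The links stall replication and transcription, and the damage signal stabilizes the transcription factor p53, which induces genes of cell cycle arrest, repair and cell death. KW6002 (istradefylline) blocks the adenosine receptor encoded by Adora2a, a G protein-coupled receptor that raises cyclic AMP and dampens the activity of many leukocytes. Adenosine accumulates outside cells in hypoxic tumors, where the ectoenzymes CD39 and CD73 form it from ATP.

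Whole-number read counts were available for 35226 genes, and 16665 genes that passed a filter on low counts were tested. Total counts were 28.8 to 37.5 M reads in vehicle tumors (31.4 ± 3.56, SD, n = 5) and 29.4 to 41 M reads in cotreated tumors (34.7 ± 4.45, SD, n = 5). On a principal component analysis of these 10 tumors, the first component held 44.8% of the variance and placed vehicle tumors between -39.8 and -28.6 and cotreated tumors between 27.0 and 43.2. The labels give each library a code number, and these fall into a low code block (vehicle tumor 1 and cotreated tumors 1, 2 and 3) and a high code block (vehicle tumors 2 to 5 and cotreated tumors 4 and 5), with nothing said of what the numbers mark. The low code block held 1 vehicle tumor and gives no comparison of its own, and counts within the high code block are quoted beside the main lists. Some tumors stood apart in their tissue content. Vehicle tumor 2 had a summed level of adipocyte markers of 508 CPM (counts per M, the reads of a gene relative to the TMM-scaled library size of that tumor), against 28.8 to 52.2 CPM in the other vehicle tumors. Cotreated tumor 4 had a summed level of skeletal muscle markers of 1749 CPM, against 6.08 to 115 CPM in the other cotreated tumors. Vehicle tumor 3 also stood apart, with skeletal muscle markers at 79.3 CPM against 7.60 to 7.87 CPM in the other vehicle tumors, and endothelial markers at 479.9 CPM against 359.8 to 389 CPM. Counts for the main lists are also given without vehicle tumor 2 and cotreated tumor 4, called the tumors rich in fat or muscle, and this leaves vehicle tumor 3 in. Without vehicle tumor 3 alone 3686 genes were called between the groups.

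Cotreatment changed the levels of 3914 of the 16665 genes tested (23.5%) at an adjusted P value under 0.05 and an absolute log2 fold change of at least 0.32. Of these, 2175 (13.1% of genes tested) were higher and 1739 (10.4%) were lower than in vehicle tumors. Most changes were small. The median log2 fold change was 0.71 for raised and -0.56 for lowered genes, 75.7% of the called genes changed less than 2-fold, and 629 raised and 321 lowered genes changed over 2-fold. All 5 tumors of one group lay beyond all 5 of the other in 4108 genes (24.7%), among them 2817 (72.0%) of the called genes. The median log2 fold change of all genes tested was -0.02. An offset fitted to GC content and gene length turned the balance, to 2003 higher and 2177 lower genes. Within the high code block, with 6 tumors of both groups, 2209 genes were called, 1289 higher and 920 lower. Cotreated and cisplatin tumors, compared directly, differed in 667 genes (4.0%). That count was less firm, at 1 gene within the high code block, 217 when the fit held only the tumors of both groups, 289 without cotreated tumor 2, 295 without cotreated tumor 3, 396 without cisplatin tumor 3 and 1013 without cotreated tumor 4. The high code block held cotreated tumors 4 and 5 and cisplatin tumors 3, 4 and 5. Fewer tumors by themselves tend to lower a count of calls. In counts within that block, here and against vehicle, the number of tumors and the block cannot be told apart. Differences from cisplatin given for single genes are from the fit of all 20 tumors, and comparisons with vehicle share the same 5 vehicle tumors. In lists of genes with a shared function, the share of called members was highest among interferon-induced genes, p53 targets and sterol and fatty acid synthesis, followed by chaperones of the cytosol and mitochondria, matrix proteases, and glucocorticoid and clock genes. Shares of a list stand beside the 13.1% higher and 10.4% lower of all genes, and a share near these is not a result about the list.

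**Figure D1:**
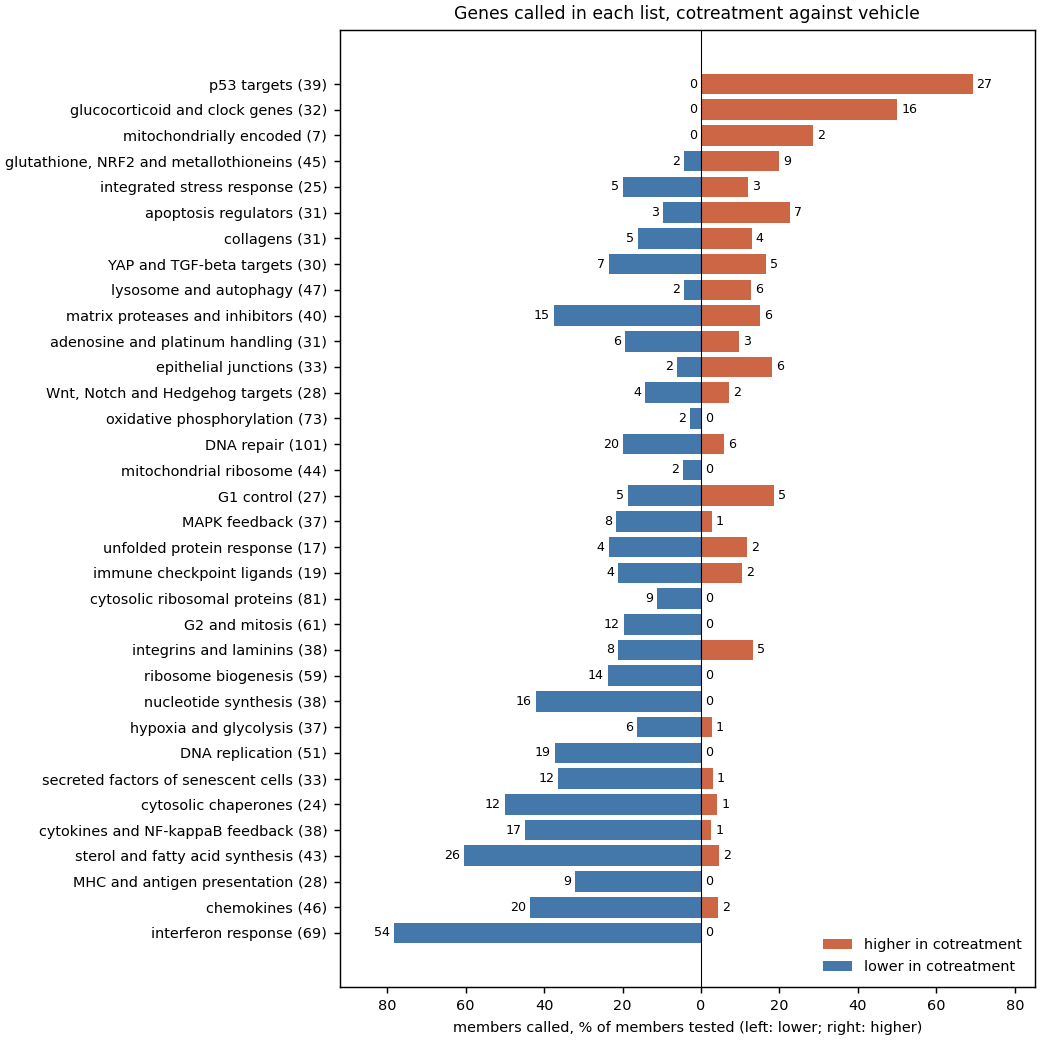
Members called lower (left) and higher (right) in each of 34 gene lists, as a percentage of the members tested, in 5 cotreated against 5 vehicle tumors. Of all genes tested, 13.1% were called higher and 10.4% lower, and the interferon list reaches 54 of 69 members on the left and the p53 list 27 of 39 on the right.

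Most targets of p53 rose. Of 39 p53 targets tested, 27 were called higher and 0 lower, with a median log2 fold change of 0.63. The rise covered each role on the list. It took in 7 of 9 genes of cell cycle arrest, 5 of 7 of p53 feedback, 8 of 10 of cell death, 5 of 8 of metabolism and stress and 2 of 5 of DNA repair. Cdkn1a (GRCm38, chr17:29090976-29100727), which encodes the cyclin-dependent kinase inhibitor p21, was measured at 299, 393, 262, 344 and 259.8 CPM in vehicle tumors 1 to 5 and at 622, 537, 495, 518 and 478 CPM in cotreated tumors 1 to 5. Every cotreated tumor exceeded every vehicle tumor (log2 fold change 0.77 ± 0.11, adjusted P = 3.63e-05). Mdm2 (chr10:117688875-117710758), the ubiquitin ligase that targets p53 for degradation, was measured at 159, 173, 140.0, 170.0 and 162 CPM in vehicle and 280.0, 273, 264, 262 and 224 CPM in cotreated tumors. These groups did not overlap either (log2 fold change 0.70 ± 0.09, adjusted P = 4.45e-06). Ephx1 (chr1:180976210-181020904), a microsomal epoxide hydrolase, had the highest fold change of the list. It was measured at 18.9, 26.8, 16.7, 22.7 and 20.5 CPM in vehicle and 71.9, 83.7, 70.7, 87.7 and 84.6 CPM in cotreated tumors (log2 fold change 1.92 ± 0.13, adjusted P = 1.33e-08), and the lowest cotreated tumor was above the highest vehicle tumor.

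Other p53 targets that rose were the cell cycle genes Ckap2 (96.9 to 168 CPM, log2 fold change 0.79, adjusted P = 2.21e-06), Psrc1 (59.3 to 94.2 CPM) and Btg2 (16.5 to 29.9 CPM), the feedback gene Trp53inp1 (67.7 to 239 CPM, log2 fold change 1.82, adjusted P = 3.50e-04), and the stress gene Sesn2 (36.6 to 67.9 CPM). Among genes of cell death, Pidd1 rose from 17.2 ± 1.84 to 42.6 ± 8.79 CPM (SD, n = 5) and Phlda3, an inhibitor of AKT, from 71.3 to 117 CPM. The transcript of p53 itself did not pass the test. Trp53 was measured at 202 to 247 CPM in vehicle and 205 to 241 CPM in cotreated tumors (log2 fold change 0.04, adjusted P = 0.625), and its groups overlapped. In the same fit, cisplatin alone gave log2 fold changes of 0.72 for Cdkn1a, 0.69 for Mdm2 and 1.89 for Ephx1 against the same vehicle tumors. Cotreated and cisplatin tumors did not differ past the threshold in these genes, with differences of 0.05 ± 0.11, adjusted P = 0.841 for Cdkn1a, 0.00 ± 0.09, adjusted P = 0.982 for Mdm2 and 0.02 ± 0.13, adjusted P = 0.936 for Ephx1. Sesn1, a sestrin that restrains mTORC1, differed. After cisplatin its log2 fold change was 0.17, and in cotreated tumors it was higher than that by 0.97 ± 0.16, adjusted P = 0.00275. In the high code block alone 19 p53 targets were called, and 28 were called without the tumors rich in fat or muscle.

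Regulators of apoptosis had 7 of 31 members higher and 3 lower (median 0.03), or 32.3% called beside 23.5% of all genes. The lower share, 9.68%, was near the 10.4% of all genes. The lower count was 1 without vehicle tumor 1 or cotreated tumor 2 or 3. Of 10 effectors of the BCL2 family and BH3-only genes, whose products bind its survival proteins, 4 were higher and 2 lower. Bmf rose from 20.8 ± 3.74 to 55.8 ± 18.3 CPM (log2 fold change 1.43 ± 0.19, adjusted P = 1.61e-05) and exceeded its level after cisplatin (difference 1.07 ± 0.19, adjusted P = 0.00378). Pmaip1 (NOXA) rose from 13.5 to 34 CPM and Bbc3 (PUMA) from 5.62 to 8.68 CPM. Both are p53 targets, and neither differed past the threshold from cisplatin tumors, with log2 differences of 0.01 ± 0.24, adjusted P = 0.981 and -0.03 ± 0.14, adjusted P = 0.917. Those lower were Bok (log2 fold change -0.47, adjusted P = 0.0113) and Bik (0.430 to 0.153 CPM, log2 fold change -1.45, adjusted P = 0.0278), whose call was lost in 5 of 10 fits without a tumor and kept without vehicle tumor 2, 3, 4 or 5 or cotreated tumor 4 (adjusted P 0.00167 to 0.0945). The survival gene Bcl2l1 (BCL-XL) rose in the same tumors from 96.9 to 154 CPM (log2 fold change 0.67, adjusted P = 1.32e-06). Regulators of apoptosis numbered 3 higher and 0 lower in the high code block.

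More than 1 in 3 genes that copy DNA fell. Of 51 DNA replication genes, 19 were lower and 0 higher (median -0.27), and these 19 were 9 of 23 genes of origin licensing and helicase and 10 of 28 of polymerases, clamp and ligase. Mcm3 (chr1:20802968-20820312), a subunit of the replicative helicase, was measured at 257, 224, 279.7, 263 and 259 CPM in vehicle and 146, 163, 140.1, 178 and 183 CPM in cotreated tumors. All vehicle tumors were above all cotreated tumors (log2 fold change -0.66 ± 0.08, adjusted P = 2.60e-06). Cdc6 (chr11:98907801-98923940), which loads that helicase onto origins, was measured at 36.2, 30.8, 38.9, 37.9 and 37.9 CPM in vehicle and 22.9, 21.9, 22.3, 26.8 and 26.1 CPM in cotreated tumors, again with no overlap (log2 fold change -0.60 ± 0.08, adjusted P = 1.57e-05). Pola1, the catalytic subunit of the polymerase that primes synthesis, fell from 80.8 ± 7.62 to 49.1 ± 5.49 CPM (log2 fold change -0.72, adjusted P = 2.32e-06). Pcna, the sliding clamp, fell from 92.4 to 68.1 CPM (log2 fold change -0.44, adjusted P = 5.73e-04). Pola1 differed from cisplatin tumors (log2 difference -0.36 ± 0.08, adjusted P = 0.0146), as did Mcm3 (-0.39 ± 0.08, adjusted P = 0.00609) and Cdc6 (-0.36 ± 0.08, adjusted P = 0.0140). For Pcna the difference was under the fold limit (-0.30 ± 0.09, adjusted P = 0.0444). Cotreated and cisplatin tumors differed in 9 of the 51 replication genes, where 4.0% of all genes did. Within the high code block 9 were lower and 1 was higher, and without the tumors rich in fat or muscle 21 were lower.

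Enzymes that supply nucleotides fell in part, with 16 of 38 lower and 0 higher (median -0.24), and 9 lower in the high code block. Tyms, the thymidylate synthase, was measured at 36.2, 34.8, 38.4, 35.5 and 38.0 CPM in vehicle and 19.0, 22.3, 20.1, 27.8 and 24.0 CPM in cotreated tumors. The groups did not overlap (log2 fold change -0.69 ± 0.09, adjusted P = 5.25e-06), and the level was also below that in cisplatin tumors (difference -0.50 ± 0.09, adjusted P = 0.00273). Dctd, which supplies dUMP to the same reaction, fell from 47.2 to 30.9 CPM. The purine enzyme Atic fell from 318 to 221 CPM (log2 fold change -0.52, adjusted P = 1.21e-06), the pyrimidine enzyme Umps from 115 to 77.6 CPM (log2 fold change -0.57, adjusted P = 1.19e-06), and Mthfd2 and Shmt2, mitochondrial enzymes of one-carbon metabolism, from 73.5 to 47.0 CPM and from 171 to 124 CPM.

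Most genes of G2 phase and mitosis did not pass the test. Of 61, 12 were lower and 0 higher (median -0.16), a share of 19.7% beside 10.4% lower among all genes. The lowered members included genes of the kinetochore and spindle, such as Cenpe (128 to 93.9 CPM, log2 fold change -0.45, adjusted P = 8.24e-05) and Kif23 (106 to 76.3 CPM). Mki67, the proliferation marker, was measured at 385, 350.1, 439, 454 and 455 CPM in vehicle and 229.7, 255, 253, 318 and 317 CPM in cotreated tumors. It was lower in every cotreated tumor (log2 fold change -0.60 ± 0.09, adjusted P = 5.99e-05). Top2a, which untangles DNA, fell from 630.1 to 495 CPM (log2 fold change -0.35, adjusted P = 9.20e-04), a change under the fold limit without vehicle tumor 5 (-0.32) or cotreated tumor 3 (-0.31). Of the 15 cyclins, kinases and phosphatases of this list, 1 was lower. Within the high code block 2 of the 61 genes were lower, and without the tumors rich in fat or muscle 18 were. Genes of G1 control split evenly, with 5 of 27 higher and 5 lower (18.5% each way), of which 3 were lower without cotreated tumor 2. Both counts shrank in the high code block, to 3 and 2. Those raised included Rb1 (32.8 to 45.0 CPM) and Rbl2 (64.5 to 89.3 CPM), of the retinoblastoma family, and Ccnd3, while Ccne2, a cyclin of the G1 to S transition, fell from 29.0 to 20.9 CPM. Ccnd1 did not change past the threshold (log2 fold change -0.03, adjusted P = 0.841).

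The promoters of replication genes carry binding sites of E2F transcription factors, which the retinoblastoma proteins restrain. Promoters were read from RefSeq on GRCm38.p6 as the 250 bases before to the 50 bases after each gene's start, and 11441 of the 16665 genes tested (68.7%) matched a promoter, so shares over all genes rest on an incomplete match. The letters TTTCCCGC or TTTGGCGC, on either strand, were found in 7 of 16 lowered replication genes with a promoter (43.8%), in 14 of 43 such genes tested (32.6%), in 329 of 11441 of all genes tested (2.88%) and in 1.56% of all promoters. The promoters of Mcm3 and Cdc6 are printed because both genes fell, with these letters or their reverse complement (GCGGGAAA, GCGCCAAA) in capitals. A match describes the sequence and does not show that a factor is bound there. The Mcm3 promoter lies at chr1:20820263-20820562, minus strand, and the Cdc6 promoter at chr11:98907901-98908200, plus strand.
Mcm3: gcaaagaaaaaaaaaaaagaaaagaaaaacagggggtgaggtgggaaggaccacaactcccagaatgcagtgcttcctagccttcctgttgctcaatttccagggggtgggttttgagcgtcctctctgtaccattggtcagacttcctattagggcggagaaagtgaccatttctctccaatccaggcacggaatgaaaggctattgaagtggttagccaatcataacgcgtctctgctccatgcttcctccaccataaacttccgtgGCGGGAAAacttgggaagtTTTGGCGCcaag
Cdc6: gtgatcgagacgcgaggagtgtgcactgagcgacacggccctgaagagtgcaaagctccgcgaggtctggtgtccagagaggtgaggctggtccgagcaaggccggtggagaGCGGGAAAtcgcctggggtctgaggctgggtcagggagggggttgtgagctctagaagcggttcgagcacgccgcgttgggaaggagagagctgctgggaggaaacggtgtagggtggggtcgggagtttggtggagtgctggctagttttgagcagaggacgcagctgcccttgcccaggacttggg

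Of 101 DNA repair genes 6 were higher and 20 lower (median -0.09). These are 5.94% higher, beside 13.1% of all genes, and 19.8% lower, beside 10.4%. The higher count was 10 without cotreated tumor 4 and 11 without cotreated tumor 5. Cisplatin adducts within a strand are removed by nucleotide excision repair. In that pathway 4 of 20 genes were higher and 2 lower. Ercc5, the endonuclease XPG and a p53 target, rose from 77.7 ± 13.9 to 139.7 ± 11.9 CPM (log2 fold change 0.85 ± 0.14, adjusted P = 1.37e-04), Xpa from 11.5 to 15.6 CPM, and Ercc1, part of the nuclease that cuts on the other side of the lesion, from 39.7 to 52.6 CPM. Crosslinks between strands are handled by the Fanconi anemia pathway and by homologous recombination, where 1 of 16 and 5 of 20 genes were lower and 0 were higher. Mre11a, a nuclease that processes broken ends, fell from 90.4 ± 9.26 to 65.3 ± 1.76 CPM (log2 fold change -0.47, adjusted P = 3.13e-06), and Rad51c from 5.87 to 3.33 CPM. End joining had 5 of 10 genes lower, among them Xrcc6 (Ku70, 94.3 to 72.0 CPM) and Parp1 (161 to 122 CPM). In checkpoint signaling, the kinase genes Chek1 (36.1 to 24.8 CPM) and Atm (61.5 to 43.2 CPM) fell and Wee1, which holds cells before mitosis, rose from 44.2 to 68.1 CPM (log2 fold change 0.63, adjusted P = 0.00359). In the high code block alone 3 repair genes were higher and 13 lower.

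Genes that make ribosomes and fold proteins were lower in part. Of 59 ribosome biogenesis genes, 14 were lower and 0 higher (median -0.24), a count that fell to 9 without cotreated tumor 2 and to 6 in the high code block. Polr1d, a subunit of RNA polymerases I and III, fell from 76.6 ± 3.91 to 47.9 ± 4.41 CPM (log2 fold change -0.68 ± 0.06, adjusted P = 1.41e-07) and lay below its level in cisplatin tumors (difference -0.45 ± 0.06, adjusted P = 6.45e-04). Ncl, the nucleolar protein nucleolin, was among the lowered genes with the largest difference in level, from 1885 ± 135 to 1481 ± 109 CPM (log2 fold change -0.35, adjusted P = 1.73e-04), a change under the fold limit without vehicle tumor 4 (-0.31) or cotreated tumor 3 (-0.31). Cytosolic ribosomal proteins had 9 of 81 genes lower and 0 higher, close to the 10.4% of all genes (3 lower in the high code block), and many of these genes have processed copies with which reads can be confused. Chaperones of the cytosol and mitochondria, named cytosolic chaperones in the plots of lists, fell more often, with 12 of 24 lower and 1 higher (median -0.34). Hsph1, a heat shock protein of the HSP110 family, fell from 177 ± 25.7 to 93.6 ± 11 CPM (log2 fold change -0.92 ± 0.10, adjusted P = 1.66e-06), with every cotreated tumor under every vehicle tumor. Hsp90aa1, the inducible HSP90, fell from 186 to 123 CPM, and Hspd1, the mitochondrial HSP60, from 328 to 227 CPM. In the high code block alone 7 chaperone genes were lower.

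Stress pathways that respond to amino acid shortage and to misfolded protein in the endoplasmic reticulum had called members in both directions, 32% and 35.3% of those tested, beside 23.5% of all genes. The integrated stress response had 3 of 25 higher and 5 lower (12% higher and 20% lower, and 3 and 2 members in the high code block). Vldlr, a lipoprotein receptor, rose from 12.9 to 45.0 CPM, and the transcription factor gene Atf3 fell from 14.0 ± 3.32 to 5.09 ± 1.32 CPM (log2 fold change -1.46, adjusted P = 0.0136). The unfolded protein response had 2 of 17 higher and 4 lower (11.8% higher and 23.5% lower, and 1 and 1 members in the high code block), the latter including the chaperone genes Hyou1 (294 to 227 CPM) and Pdia4 (433 to 318 CPM). Nuclear genes of oxidative phosphorylation were at background or below, with 2 of 73 lower and 0 higher, as were mitochondrial ribosomal proteins, with 2 of 44 lower. These small counts moved with single tumors. The first was 0 without vehicle tumor 4 or cotreated tumor 2 or 3, 1 without vehicle tumor 1 or 2 or cotreated tumor 1, and 4 without cotreated tumor 4, and the second was 1 without vehicle tumor 3 or cotreated tumor 1 or 3. Of 7 mitochondrially encoded subunits tested, mt-Nd1 (1710.4 to 2592 CPM) and mt-Nd5 (949.5 to 1243 CPM) were higher, with overlapping groups. In the high code block and in a test against the fold limit 0 were higher, and without the tumors rich in fat or muscle 1 was. Hypoxia and glycolysis genes had 6 of 37 lower and 1 higher (2.70% higher and 16.2% lower). The lower count was 1 in the high code block, 2 without vehicle tumor 1 or cotreated tumor 2 or 3, and 3 without vehicle tumor 2, 3, 4 or 5 or cotreated tumor 1. With the offset fitted to GC content and gene length it was 10. P4ha1, a collagen prolyl hydroxylase, fell from 351 ± 28.2 to 213 ± 35.4 CPM (log2 fold change -0.72, adjusted P = 0.00600). Vegfa did not pass the test (log2 fold change -0.32, adjusted P = 0.424).

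Enzymes of cholesterol synthesis fell. The enzymes of this chain, from acetyl-CoA to cholesterol, are induced together by the transcription factor SREBP2 when sterols run short. Of 20 enzymes tested, 17 were lower and 0 higher, with a median log2 fold change of -0.59 against -0.02 for all genes. Cyp51 (chr5:4081145-4104746), the lanosterol demethylase, was measured at 104, 133, 121, 149.8 and 130.1 CPM in vehicle and 82.7, 57.1, 69.2, 48.1 and 63.4 CPM in cotreated tumors. All cotreated tumors were below all vehicle tumors (log2 fold change -0.99 ± 0.17, adjusted P = 1.69e-04). Dhcr7, which makes cholesterol in the last step, fell from 41.5 ± 2.52 to 24.5 ± 3.36 CPM (log2 fold change -0.76, adjusted P = 1.04e-05), the squalene synthase Fdft1 from 74.9 to 45.1 CPM and the mevalonate enzyme Mvd from 31.2 to 19.0 CPM. Srebf2, which encodes SREBP2, fell from 224 ± 19.9 to 152 ± 16.8 CPM (log2 fold change -0.55, adjusted P = 3.37e-04). Mylip, a ubiquitin ligase gene induced by sterols, rose from 25.2 to 37.8 CPM (log2 fold change 0.58, adjusted P = 9.07e-06).

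Fatty acid synthesis had 5 of 10 genes lower and 0 higher. The desaturase Fads2 fell from 96.8 ± 11.4 to 49.1 ± 5.59 CPM (log2 fold change -0.98 ± 0.15, adjusted P = 5.58e-05), the elongase Elovl6 from 166 to 98.8 CPM, and Acly, the source of cytosolic acetyl-CoA, from 379.7 to 267 CPM. For the 20 cholesterol enzymes the median log2 fold change was -0.75 after cisplatin alone, against the same vehicle tumors. Cotreated and cisplatin tumors differed past the threshold in 0 of these enzymes, with a difference of 0.02 ± 0.17, adjusted P = 0.959 for Cyp51 and 0.00 ± 0.10, adjusted P = 0.998 for Dhcr7. In the whole list of 43 sterol and fatty acid genes 26 were lower and 2 higher. In the high code block 27 members were lower, and without the tumors rich in fat or muscle 19 were. Vehicle tumor 2, with the most adipocyte RNA, is one of the tumors left out there, and the part of fat RNA in this result was not tested.

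SREBP acts with NF-Y, which binds the letters CCAAT. These letters, on either strand, were found in the promoter of 13 of 15 cholesterol enzymes (86.7%) and of 4429 of 11441 genes tested (38.7%), and in 37.4% of all promoters of this length. The same letters were in 6 of 7 raised glucocorticoid targets (85.7%), 12 of 16 genes of the spindle checkpoint and kinetochore (75.0%) and 24 of 43 replication genes (55.8%). They were in 37.8% of promoters of genes called lower and 39.3% of those called higher. The promoters of Cyp51 (chr5:4104648-4104947, minus strand) and of Mvd (chr8:122443373-122443672, minus strand), both described above, are printed with these letters in capitals.
Cyp51: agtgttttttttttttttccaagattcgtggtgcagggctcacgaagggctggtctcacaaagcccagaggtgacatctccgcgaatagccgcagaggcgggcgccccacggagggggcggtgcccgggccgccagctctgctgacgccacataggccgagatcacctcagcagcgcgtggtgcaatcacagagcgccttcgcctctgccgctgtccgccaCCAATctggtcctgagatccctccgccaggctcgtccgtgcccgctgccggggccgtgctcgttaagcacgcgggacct
Mvd: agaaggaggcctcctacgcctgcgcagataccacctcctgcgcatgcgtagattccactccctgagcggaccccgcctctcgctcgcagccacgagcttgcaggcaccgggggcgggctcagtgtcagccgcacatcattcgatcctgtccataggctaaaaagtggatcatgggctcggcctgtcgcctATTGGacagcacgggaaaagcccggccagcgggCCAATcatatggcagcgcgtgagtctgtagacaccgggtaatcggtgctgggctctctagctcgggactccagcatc

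Most interferon-induced genes fell, and this list had the highest share of called members. Type I and type II interferons act through STAT transcription factors to induce sensors of foreign nucleic acid, antiviral effectors and guanylate-binding proteins. Of 69 members tested, 54 were lower and 0 higher, with a median log2 fold change of -0.81. These were 31 of 36 genes of RNA sensing and antiviral action, 11 of 18 of signaling and 12 of 15 GTPases. Zbp1 (chr2:173206612-173218923), a sensor of Z-form nucleic acids, was measured at 26.6, 34, 18.6, 21.9 and 22.8 CPM in vehicle and 8.15, 4.68, 5.15, 9.94 and 7.42 CPM in cotreated tumors. No cotreated tumor reached the lowest vehicle tumor (log2 fold change -1.81 ± 0.22, adjusted P = 7.06e-06). Ddx58 (RIG-I), a sensor of viral RNA, fell from 52.8 ± 3.79 to 31.1 ± 4.76 CPM (log2 fold change -0.77, adjusted P = 1.65e-06), and Parp14 and Parp12, interferon-induced ADP-ribosyltransferases, from 59.8 to 38.4 CPM and from 59.1 to 39.3 CPM. Cgas, the sensor of cytosolic DNA, fell from 2.63 ± 0.195 to 1.30 ± 0.188 CPM (log2 fold change -1.01, adjusted P = 1.72e-05), and Tmem173 (STING), which relays its signal, from 121 to 93.7 CPM.

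Among signaling genes, Irf1, a transcription factor induced by interferon gamma, was measured at 95.5, 97.2, 91.9, 101 and 92.3 CPM in vehicle and 68.3, 55.1, 58.5, 66.9 and 62.9 CPM in cotreated tumors. The groups did not overlap (log2 fold change -0.62 ± 0.07, adjusted P = 1.32e-06), and the level was below that in cisplatin tumors (difference -0.35 ± 0.07, adjusted P = 0.00519). Irf9, the DNA-binding part of the complex that carries the type I signal, fell from 33.6 to 24.1 CPM. The GTPases Irgm1 (39.1 to 25.0 CPM, log2 fold change -0.64, adjusted P = 7.93e-05), Igtp (20 to 11.2 CPM) and Gbp2 (39.7 to 17.5 CPM) fell as well. Isg15 and Rsad2 were chosen after their values had been seen, for the promoters printed with this result. Isg15, a ubiquitin-like modifier, was measured at 16.5, 20.3, 17.2, 13.6 and 11.3 CPM in vehicle and 3.74, 1.76, 2.59, 9.03 and 4.52 CPM in cotreated tumors (log2 fold change -1.86 ± 0.34, adjusted P = 3.57e-04). Rsad2 (viperin) was measured at 15.8, 17.7, 20.4, 13.2 and 9.13 CPM in vehicle and 3.47, 1.93, 2.80, 5.67 and 2.99 CPM in cotreated tumors (log2 fold change -2.17 ± 0.34, adjusted P = 1.06e-04). Both fell without overlap. After cisplatin alone the median of the list was -0.48. Cotreated and cisplatin tumors differed in 2 of the 69 members, a share not above the 4.0% of all genes. These were Irf1 and Zbp1 (difference -0.77 ± 0.22, adjusted P = 0.0420 for Zbp1). Within the high code block 25 members were lower (median -0.54), and without the tumors rich in fat or muscle 49 were. Several members have near-identical neighbors (the Oas, Ifit, Gbp and Tgtp genes), and with uniquely aligned reads their levels are uncertain.

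The interferon-stimulated response element has the core GAAANNGAAA. It was found, on either strand, in the promoters of 23 of 41 lowered interferon genes (56.1%) and of 26 of 52 tested (50%). It was present in 358 of 11441 genes tested (3.13%) and in 3.44% of all promoters. Among genes called lower in cotreated tumors it was in 69 of 1266 promoters (5.45%), and among genes called higher in 30 of 1482 (2.02%). The p53 element was also searched for, as RRRCWWGYYY followed directly by the same pattern, with no spacer or mismatch allowed. Here R is A or G, W is A or T and Y is C or T. It was in 0 of 31 p53 targets tested, in 0 of 11441 genes tested and in 3 of 32851 promoters of the table within the same window. A pattern this rare in all promoters cannot show whether p53 targets carry the element. The promoters shown lie at chr4:156200769-156201068, minus strand, for Isg15, where 3 overlapping copies of the core form 1 run of capitals, at chr11:48871371-48871670, minus strand, for Irgm1, and at chr12:26456403-26456702, minus strand, for Rsad2.
Isg15: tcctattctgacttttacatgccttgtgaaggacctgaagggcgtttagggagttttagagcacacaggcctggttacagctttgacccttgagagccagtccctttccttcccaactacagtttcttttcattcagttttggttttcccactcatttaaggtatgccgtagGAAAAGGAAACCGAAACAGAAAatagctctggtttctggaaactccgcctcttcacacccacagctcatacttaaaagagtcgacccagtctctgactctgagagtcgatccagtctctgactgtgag
Irgm1: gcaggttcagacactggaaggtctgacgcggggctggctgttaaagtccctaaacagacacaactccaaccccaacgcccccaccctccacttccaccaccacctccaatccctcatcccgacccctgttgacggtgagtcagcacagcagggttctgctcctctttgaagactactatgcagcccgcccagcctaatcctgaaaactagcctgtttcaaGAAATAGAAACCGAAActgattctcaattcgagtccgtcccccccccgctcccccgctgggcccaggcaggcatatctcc
Rsad2: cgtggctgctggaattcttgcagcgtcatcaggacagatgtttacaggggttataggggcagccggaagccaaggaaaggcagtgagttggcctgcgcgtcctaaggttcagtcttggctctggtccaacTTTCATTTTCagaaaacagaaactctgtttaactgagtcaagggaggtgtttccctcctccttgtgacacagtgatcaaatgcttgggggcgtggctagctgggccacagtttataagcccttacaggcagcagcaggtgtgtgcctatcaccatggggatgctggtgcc

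**Figure D2:**
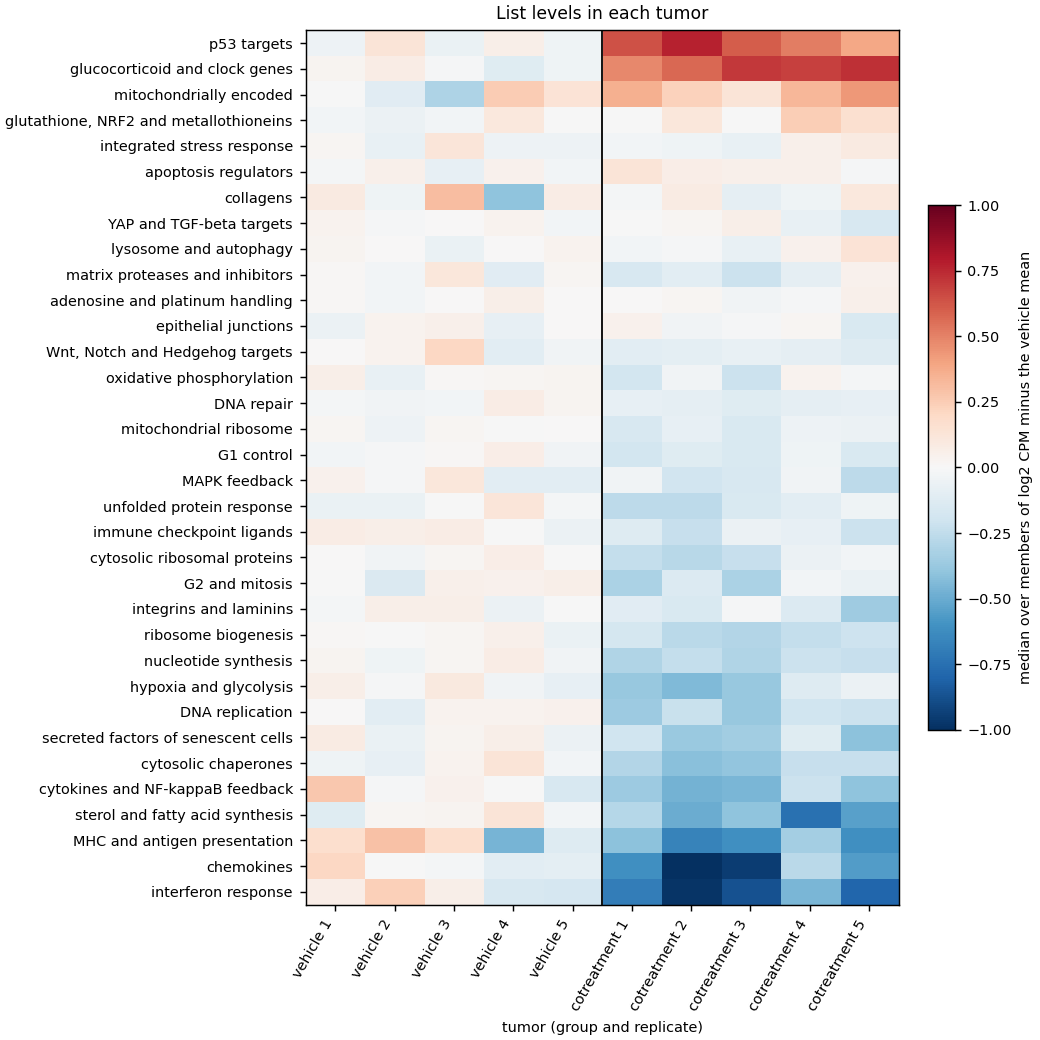
Level of each gene list in each of the 10 tumors, as the median over its members of log2 CPM minus the vehicle mean. The p53 targets lie between 0.39 and 0.77 in cotreated tumors and between -0.07 and 0.13 in vehicle tumors, and the interferon list between -0.98 and -0.45 against -0.17 to 0.24.

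Antigen presentation by MHC molecules, which interferon gamma also induces, had 9 of 28 genes lower (32.1%) and 0 higher, with 4 lower in the high code block. In the class I pathway Tapbp (tapasin), which loads peptides, was measured at 136, 145, 136, 125 and 128 CPM in vehicle and 87.3, 72.8, 76.1, 93.2 and 82.3 CPM in cotreated tumors. It was lower in every cotreated tumor (log2 fold change -0.70 ± 0.07, adjusted P = 5.26e-07). Erap1, a peptide-trimming enzyme, fell from 94.2 to 51.7 CPM, and Psmb10, an immunoproteasome subunit, from 30.7 to 17.8 CPM. Class II genes were uneven between tumors. Ciita, the master regulator of class II, was measured at 5.80, 6.40, 5.78, 1.73 and 3.78 CPM in vehicle and 1.30, 1.43, 1.77, 1.87 and 1.37 CPM in cotreated tumors (log2 fold change -1.60 ± 0.44, adjusted P = 0.00857), with overlap. The calls for H2-Ab1 (28.9 to 12.1 CPM) and H2-Eb1 (36.6 to 16.4 CPM) were each lost in most of the 10 fits made without a tumor, 7 and 8 of them, and kept for both without vehicle tumor 4 or 5 (adjusted P 0.0223 to 0.0929 for H2-Ab1 and adjusted P 0.0248 to 0.0954 for H2-Eb1 over these fits).

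Many chemokines and inflammatory cytokines fell. Of 46 chemokine ligands and receptors, 20 were lower and 2 higher (median -0.60). Ccl2 (chr11:82035571-82037453), which attracts monocytes, was measured at 266, 233, 238, 282 and 212 CPM in vehicle and 155, 79.0, 87.5, 162 and 121 CPM in cotreated tumors. All cotreated tumors were lower (log2 fold change -1.03 ± 0.17, adjusted P = 1.83e-04). The related ligands Ccl12 (24.9 ± 3.86 to 9.25 ± 2.04 CPM, log2 fold change -1.43, adjusted P = 3.93e-05) and Ccl7 (119 to 65.4 CPM) fell, as did Ccl4, made by activated macrophages (3.45 to 0.908 CPM). Cxcl10 (chr5:92346638-92348889), an interferon-induced ligand of CXCR3, was measured at 15.9, 14.7, 20.8, 10.5 and 10.4 CPM in vehicle and 1.35, 0.386, 0.716, 3.69 and 1.62 CPM in cotreated tumors, without overlap (log2 fold change -3.21 ± 0.44, adjusted P = 3.02e-05). The neutrophil attractants Cxcl2 (12.5 ± 6.60 to 2.19 ± 1.95 CPM, adjusted P = 0.00501) and Cxcl3 (4.33 ± 1.71 to 0.619 ± 0.624 CPM) fell too. Among receptors, Cx3cr1 fell from 34.9 to 13.7 CPM, and Cxcr2, the neutrophil receptor for those attractants, from 4.80 to 1.39 CPM.

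Chemokines were a list in which cotreated tumors also differed from cisplatin tumors, in 9 of 46 genes where 4.0% of all genes did. After cisplatin alone Ccl12 had a log2 fold change of 0.01 against the same vehicle tumors, and the difference between cotreated and cisplatin tumors was -1.44 ± 0.21, adjusted P = 0.00112. For Ccl7 the difference was -0.80 ± 0.21, adjusted P = 0.0322, for Ccl4 -1.77 ± 0.43, adjusted P = 0.0213 and for Cxcl10 -1.64 ± 0.43, adjusted P = 0.0316. For Ccl2 it missed the threshold, at -0.58 ± 0.17, adjusted P = 0.0520. The raised members were Ccl11 and Cxcl13, and neither was higher without vehicle tumor 1 or 5 or cotreated tumor 2 or 5, with 1 of them higher without vehicle tumor 3 or 4. Within the high code block 5 chemokine genes were lower (median -0.29), and without the tumors rich in fat or muscle 18 were.

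Of 38 cytokines and NF-kappaB feedback genes, 17 were lower and 1 higher (median -0.40). Il1b, the pyrogenic cytokine interleukin 1 beta, was measured at 48.6, 21.1, 23.7, 25.7 and 14.8 CPM in vehicle and 3.50, 0.937, 2.01, 8.34 and 2.65 CPM in cotreated tumors. The groups were apart (log2 fold change -2.93 ± 0.54, adjusted P = 5.32e-04). Il1rn, its receptor antagonist, fell as well, from 16 ± 3.37 to 4.76 ± 2.23 CPM (log2 fold change -1.74, adjusted P = 6.17e-05, difference from cisplatin -1.07 ± 0.26, adjusted P = 0.0214). Il6 was measured at 2.66, 0.879, 0.620, 1.18 and 0.685 CPM in vehicle and 0.514, 0.331, 0.171, 0.303 and 0.281 CPM in cotreated tumors (log2 fold change -1.88 ± 0.41, adjusted P = 0.00125), with vehicle tumor 1 far above the others. Tnf fell from 2.82 ± 0.626 to 1.76 ± 0.448 CPM (log2 fold change -0.69, adjusted P = 0.0135), with overlapping groups, and Csf3 (G-CSF), looked up after the results, from 2.78 ± 2.06 to 0.195 ± 0.0677 CPM. Among genes that NF-kappaB induces on itself, Nfkb2 fell from 95.7 to 65.2 CPM (log2 fold change -0.55, adjusted P = 8.78e-06) and Nfkbie, an inhibitor, from 11 to 6.24 CPM. The adhesion gene Vcam1 fell from 145 to 94.8 CPM. In the high code block alone 10 of the 38 genes were lower.

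Markers of some leukocytes were lower in the same tumors. The summed level of 13 neutrophil markers was 74.2 to 142 CPM in vehicle and 26.7 to 46.5 CPM in cotreated tumors, with 4 of 7 tested markers lower and the granule genes Ngp, Camp, Ltf and Elane at no more than 3 counts in any of the 10 tumors. Dendritic cell markers had 5 of 9 lower (summed level 13.0 to 20.4 against 10.4 to 13.0 CPM). T cell markers were low throughout, with overlapping sums of 5.04 to 15.7 CPM in vehicle and 5.05 to 8.05 CPM in cotreated tumors, and vehicle tumor 4 the lowest. Of 15 T cell markers 2 were called lower, a share near the 10.4% of all genes. The part of these cells in the fall of the interferon, chemokine and cytokine genes was not tested. In RNA of whole tumors, fewer cells of a type and less RNA per cell cannot be told apart.

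Checkpoint ligands had 2 of 19 members higher and 4 lower (31.6% called beside 23.5%, and 10.5% higher beside 13.1%), the lower count being 2 in the high code block and without vehicle tumor 1 or 2 or cotreated tumor 1, 2 or 3. Cd80, a ligand of CD28 and CTLA4, was measured at 7.70, 9.39, 6.04, 7.51 and 6.03 CPM in vehicle and 21.1, 18.4, 19.1, 24.6 and 17.1 CPM in cotreated tumors. All cotreated tumors were higher (log2 fold change 1.45 ± 0.14, adjusted P = 2.99e-07), and they did not differ past the threshold from cisplatin tumors (difference -0.17 ± 0.13, adjusted P = 0.468). Tnfsf4 (OX40 ligand) rose from 0.362 to 0.985 CPM. Cd274 (PD-L1) was lower at 22.5, 23.9, 22.4, 17.3 and 15.3 CPM in vehicle and 15.1, 11.3, 13.5, 14.4 and 14.9 CPM in cotreated tumors (log2 fold change -0.55 ± 0.21, adjusted P = 0.0487), a call lost in 8 of 10 fits without a tumor and kept without vehicle tumor 4 or 5 (adjusted P 0.0356 to 0.126). Factors that senescent cells secrete, listed together with binding proteins and senescence genes, were mostly lower where they changed, with 12 of 33 lower (36.4%) and 1 higher (5 and 2 in the high code block). The cytokines and growth factors had 7 of 19 lower and 1 higher, and the binding proteins and senescence genes 5 of 14 lower and 0 higher. Members such as Il6 and Il1b also stand on the cytokine list. Secreted factors are pooled here with genes such as Lmnb1 that are lost in senescence, so the count of lower members mixes different meanings. Igfbp3, which binds insulin-like growth factors, fell from 168 ± 30.6 to 85.7 ± 19.7 CPM (log2 fold change -0.97, adjusted P = 0.00265), Pdgfb from 14.9 to 5.96 CPM and Hbegf, a ligand of the EGF receptor, from 49.4 to 29.3 CPM (difference from cisplatin -0.68 ± 0.14, adjusted P = 0.00774), while Fgf2 rose from 6.05 to 9.85 CPM. Lmnb1, a lamin that is lost in senescence, fell from 96.0 ± 6.57 to 63.2 ± 3.72 CPM (log2 fold change -0.60, adjusted P = 6.86e-07).

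Genes that glucocorticoids induce rose in part. The glucocorticoid receptor, bound by corticosterone in mice, induces Fkbp5, Tsc22d3 and other genes within hours. Of 14 such targets tested, 8 were higher and 0 lower, with a median log2 fold change of 1.28. Fkbp5 (chr17:28399094-28517527), a cochaperone that limits the receptor, was measured at 154, 231, 200.5, 202 and 169 CPM in vehicle and 574, 790.3, 785, 446 and 745 CPM in cotreated tumors. The lowest cotreated tumor was above the highest vehicle tumor (log2 fold change 1.81 ± 0.15, adjusted P = 1.14e-07). Tsc22d3 (GILZ, chrX:140539528-140600659), which mediates anti-inflammatory effects of glucocorticoids, was measured at 46.1, 86.1, 52.3, 57.1 and 49.0 CPM in vehicle and 182, 331, 287, 138 and 275 CPM in cotreated tumors (log2 fold change 2.06 ± 0.22, adjusted P = 2.45e-06). The kinase Sgk1 rose from 122 ± 7.23 to 249 ± 44.8 CPM (log2 fold change 1.03, adjusted P = 1.69e-06). Klf9 and Pdk4 were named after their values had been seen. The transcription factor Klf9 rose from 43.5 to 125 CPM and Pdk4, which blocks pyruvate oxidation, from 1.23 to 10.7 CPM. The levels exceeded those in cisplatin tumors for 5 of the 14 targets, where 4.0% of all genes differed in either direction. The difference was 1.05 ± 0.15, adjusted P = 7.78e-04 for Fkbp5 and 1.18 ± 0.21, adjusted P = 0.00492 for Tsc22d3, where cisplatin alone gave log2 fold changes of 0.76 and 0.88 against the same vehicle tumors. For KW6002 alone they were -0.01 and 0.08. In the high code block 14 glucocorticoid and clock genes together were higher.

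Circadian clock genes were raised in part. Of 18 clock genes, 8 were higher and 0 lower (median 0.49). Per2, a repressor within the clock whose gene glucocorticoids also induce, was measured at 8.05, 10.4, 10.5, 5.75 and 9.82 CPM in vehicle and 38.2, 52.4, 41.3, 37.2 and 52.3 CPM in cotreated tumors. Every cotreated tumor was above every vehicle tumor (log2 fold change 2.32 ± 0.25, adjusted P = 2.43e-06). Per1, looked up afterwards, rose from 73.0 ± 29.4 to 182 ± 39.3 CPM (log2 fold change 1.32, adjusted P = 0.00179). The other repressors Cry1 (25.5 to 37.0 CPM) and Cry2 (47.6 to 73.0 CPM) and the output factor Tef (69.2 to 136 CPM) rose as well. Cotreated and cisplatin tumors differed in 0 of the 18 clock genes past both thresholds, with an adjusted P value of 0.220 for Per2. The time of day at which tumors were collected is not given in the sources used here.

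**Figure D3:**
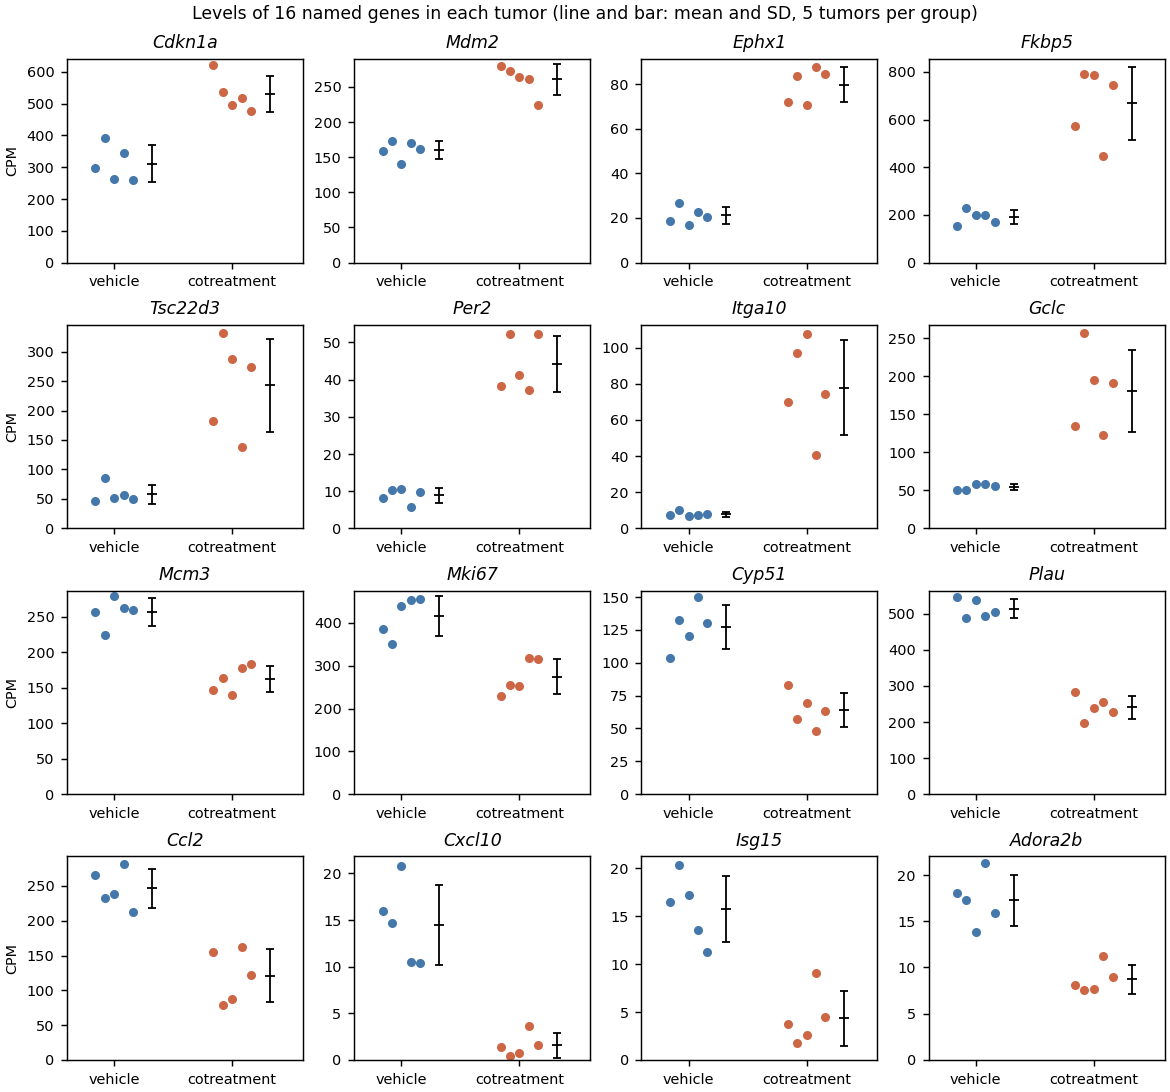
Levels of 16 named genes in CPM in each vehicle and cotreated tumor, with the mean and SD of 5 tumors per group. Cdkn1a and Mdm2 are higher in all cotreated tumors, Fkbp5 rises from 191 to 668 CPM on average, and Ccl2 and Cxcl10 fall without overlap between the groups.

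Under the limits that the named genes had to meet, an average of 50 or more reads and no overlap, the genes with the largest fold changes upward were low in vehicle tumors. Tcf23, a basic helix-loop-helix factor, was measured at 0.0691, 0.105, 0.0979, 0.110 and 0.130 CPM in vehicle and 2.84, 8.27, 5.63, 1.46 and 6.68 CPM in cotreated tumors. The groups were far apart (log2 fold change 5.54 ± 0.46, adjusted P = 9.50e-08, difference from cisplatin 2.25 ± 0.35, adjusted P = 0.00179). Hif3a, a hypoxia-inducible factor subunit that also stands on the glucocorticoid list, was measured at 0.104, 0.492, 0.131, 0.110 and 0.196 CPM in vehicle and 4.92, 14.2, 9.07, 2.5 and 15.0 CPM in cotreated tumors (log2 fold change 5.47 ± 0.62, adjusted P = 3.80e-06). Zbtb16 (PLZF), a zinc finger transcription factor, rose from 0.333 ± 0.290 to 5.17 ± 1.96 CPM (log2 fold change 3.96, adjusted P = 7.49e-06). Nr1h4, the bile acid receptor FXR, rose from 0.262 ± 0.128 to 6.93 ± 3.54 CPM (log2 fold change 4.69, adjusted P = 2.47e-07). The alcohol and aldehyde dehydrogenases Adh1 (0.859 ± 0.526 to 17.3 ± 12.2 CPM) and Aldh1a1 (0.841 ± 0.651 to 16.4 ± 10.8 CPM), which turn retinol into retinoic acid, rose with log2 fold changes of 4.34 and 4.30. Ampd1, the AMP deaminase of skeletal muscle, was measured at 0.905, 1.29, 1.13, 10.7 and 0.718 CPM in cotreated tumors, with its highest value in the tumor richest in muscle RNA. Itga10, an integrin subunit that binds collagen, was measured at 7.29, 10.2, 6.66, 7.49 and 7.76 CPM in vehicle and 70.1, 97.0, 108, 40.5 and 74.4 CPM in cotreated tumors (log2 fold change 3.30 ± 0.21, adjusted P = 1.06e-08, difference from cisplatin 1.52 ± 0.19, adjusted P = 6.45e-04).

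Among genes that averaged 50 or more reads and whose groups did not overlap, the largest falls were those of red blood cell genes. Hbb-bt, Hbb-bs and Alas2 had 0, at most 2 and at most 2 counts in any cotreated tumor respectively. Hbb-bt was at least 110.2-fold and Hbb-bs at least 512-fold lower, measured against a floor of 3 counts per tumor. The summed level of red blood cell markers was 26.5 to 118 CPM in vehicle, 0.304 to 0.861 CPM in cisplatin and 0.343 to 0.551 CPM in cotreated tumors. Other genes with large falls under the same limits were Hcar2, Acod1 and S100a9. Hcar2, the receptor for niacin and ketone bodies, was measured at 27.0, 12.6, 12.9, 11.6 and 6.46 CPM in vehicle and 1.17, 0.165, 0.512, 3.69 and 0.593 CPM in cotreated tumors (log2 fold change -3.50 ± 0.87, adjusted P = 0.00482). Acod1, which makes itaconate in activated macrophages, fell from 5.69 ± 2.01 to 0.614 ± 0.352 CPM (log2 fold change -3.20, adjusted P = 1.76e-04). S100a9, a subunit of the neutrophil protein calprotectin, was measured at 56.7, 28.4, 28.7, 33.2 and 18.6 CPM in vehicle and 4.26, 2.29, 2.46, 10.7 and 3.21 CPM in cotreated tumors (log2 fold change -2.85 ± 0.62, adjusted P = 0.00201), and its partner S100a8 fell from 17.7 ± 7.29 to 4.28 ± 1.72 CPM.

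Among genes whose groups did not overlap, the largest increases in level were those of Neat1, a nuclear noncoding RNA that builds paraspeckles (2057 ± 159 to 3173 ± 747 CPM, log2 fold change 0.63, adjusted P = 3.12e-04), Fkbp5 and Dock10, a guanine nucleotide exchange factor for CDC42 (349 ± 56.7 to 817 ± 128 CPM, log2 fold change 1.23, adjusted P = 9.74e-07). Preb, a guanine nucleotide exchange factor of vesicle budding, rose from 149 ± 4.23 to 469.5 ± 163 CPM (log2 fold change 1.66 ± 0.17, adjusted P = 1.05e-06) and lay above its level in cisplatin tumors (difference 1.05 ± 0.16, adjusted P = 0.00194). Xdh (xanthine oxidoreductase), which makes uric acid, rose from 128 ± 12.8 to 430.3 ± 118 CPM (log2 fold change 1.74, adjusted P = 1.58e-06), and the calcium-binding protein gene S100a4 from 386 to 676 CPM. The largest decreases among such genes were those of Actb, cytoplasmic beta-actin (1962 ± 224 to 1350.4 ± 46.9 CPM, log2 fold change -0.54, adjusted P = 1.14e-05), Ncl, Gja1, the gap junction protein connexin 43 (931 to 555 CPM), and Pabpc1, a poly(A)-binding protein (1352 to 1049 CPM). Lum (lumican), a proteoglycan of fibroblasts, fell from 903 to 602 CPM.

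Of 31 collagens tested 4 were higher and 5 lower (12.9% higher and 16.1% lower, 29.0% called beside 23.5%), and 3 were lower without vehicle tumor 1. Their counts were 1 higher and 2 lower in the high code block. Col6a1 and Col6a2, chains of the beaded filament collagen VI, rose from 737 ± 142 to 1111 ± 131 CPM (log2 fold change 0.59, adjusted P = 0.00737) and from 339 to 543 CPM, whereas the third chain, Col6a3, fell from 479.6 to 355 CPM with overlapping groups and a log2 fold change of -0.31, under the limit, without vehicle tumor 1. Col15a1, a collagen of basement membranes, fell from 23.1 ± 4.83 to 9.66 ± 1.47 CPM (log2 fold change -1.26, adjusted P = 0.00126). Matrix proteases and their inhibitors had 6 of 40 higher and 15 lower (15% higher and 37.5% lower), and 7 and 10 in the high code block. Plau (chr14:20836660-20843385), the urokinase that activates plasminogen, was measured at 547, 487, 539, 493 and 506 CPM in vehicle and 283, 198, 238, 257 and 228 CPM in cotreated tumors. All cotreated tumors were lower (log2 fold change -1.10 ± 0.11, adjusted P = 4.24e-07, difference from cisplatin -0.47 ± 0.11, adjusted P = 0.0140). Mmp13, a collagenase, fell from 22 ± 6.47 to 4.04 ± 1.33 CPM (log2 fold change -2.45, adjusted P = 2.49e-04) and the stromelysin Mmp10 from 15.2 to 2.96 CPM. Adamts1, an aggrecanase, was measured at 218, 268, 239, 226 and 292 CPM in vehicle and 510.2, 803, 750.5, 371 and 638 CPM in cotreated tumors. It rose without overlap (log2 fold change 1.31 ± 0.15, adjusted P = 2.13e-06, difference from cisplatin 1.01 ± 0.14, adjusted P = 0.00105). Serpine2, an inhibitor of thrombin and urokinase, rose from 17.1 ± 2.89 to 58.5 ± 9.35 CPM (log2 fold change 1.78, adjusted P = 9.50e-08).

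Integrins and laminins had 5 of 38 higher and 8 lower (13.2% higher and 21.1% lower), and 3 and 6 in the high code block. The higher share was at the level of all genes. Besides Itga10, the laminin chain Lama2 rose from 21.7 to 43.0 CPM. Itgb3, part of the vitronectin receptor, fell from 31.5 ± 3.16 to 14.9 ± 4.34 CPM (log2 fold change -1.08, adjusted P = 1.01e-04), and Itga4, carried by leukocytes, from 14.4 to 9.12 CPM. Junction genes of epithelia, with keratins and their mesenchymal counterparts, are named epithelial junctions in the plots of lists. They had 6 of 33 higher and 2 lower (18.2% higher and 6.06% lower), 24.2% called beside 23.5% of all genes, and 14 further members were not tested, including Epcam. Desmosomes and plakins had 2 of 8 higher and 1 lower, and adherens and tight junctions 0 of 11 higher and 1 lower. Keratins and mesenchymal counterparts had 4 of 14 higher and 0 lower. Ppl (periplakin), which links desmosomes to keratin, was measured at 4.14, 7.21, 6.17, 5.01 and 5.45 CPM in vehicle and 35.2, 65.2, 50.9, 43.5 and 58.5 CPM in cotreated tumors (log2 fold change 3.18 ± 0.20, adjusted P = 1.06e-08). Every cotreated tumor exceeded every vehicle tumor. Krt8, a keratin of simple epithelia, rose from 129 ± 8.38 to 191 ± 7.51 CPM (log2 fold change 0.57, adjusted P = 3.12e-05).

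MAPK feedback genes had 8 of 37 lower (21.6% beside 10.4% of all genes) and 1 higher (2.70% beside 13.1%), with 1 lower in the high code block, and 3 to 7 were lower when a tumor was left out (3 without vehicle tumor 1 or cotreated tumor 3, 4 without cotreated tumor 2 or 5, and 5 without vehicle tumor 2 or 3). The raised gene was Dusp1, a phosphatase of MAP kinases that glucocorticoids induce (16.8 ± 1.22 to 43.6 ± 14.7 CPM, log2 fold change 1.38, adjusted P = 2.39e-04). Myc fell from 350.2 ± 52.6 to 249 ± 36.8 CPM (log2 fold change -0.49, adjusted P = 0.0117), with overlapping groups. YAP and TGF-beta genes had 5 of 30 higher and 7 lower (16.7% higher and 23.3% lower). Ltbp1, which stores TGF-beta in the matrix, rose from 393 to 678 CPM and Tgfb2 from 2.06 to 3.76 CPM, while Tgfb3 fell from 80.5 to 40.5 CPM (log2 fold change -0.99, adjusted P = 1.73e-06) and the YAP target Ccn1 from 52.6 to 29.8 CPM. In the Wnt list 0 of 10 genes were higher and 0 lower. Of 18 Notch and Hedgehog genes 2 were higher and 4 lower (11.1% and 22.2%). Among these, Hhip, an inhibitor of Hedgehog, fell from 12.8 ± 3.14 to 5.93 ± 0.657 CPM (log2 fold change -1.11, adjusted P = 5.27e-04), Gli1, a Hedgehog target, rose from 2.90 to 5.01 CPM, and the endothelial Notch ligand Dll4 fell from 9.87 to 5.54 CPM.

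Glutathione and other defenses against electrophiles, which bind platinum and scavenge oxidants, were called about as often as all genes. Of 45 genes of glutathione, NRF2 and metallothioneins, 9 were higher and 2 lower (20% higher and 4.44% lower, 24.4% called beside 23.5% of all genes), of which 1 was lower without cotreated tumor 2 or 3. Gclc (chr9:77754535-77794485), the catalytic subunit of the enzyme that limits glutathione synthesis, was measured at 50.7, 50, 58.5, 58.5 and 55.0 CPM in vehicle and 134, 257, 195, 123 and 191 CPM in cotreated tumors. The groups did not overlap (log2 fold change 1.72 ± 0.17, adjusted P = 1.21e-06), and the level exceeded that in cisplatin tumors (difference 0.97 ± 0.17, adjusted P = 0.00405). The transferases Mgst2 (19.9 ± 1.59 to 39.3 ± 2.97 CPM, log2 fold change 0.99, adjusted P = 9.06e-08) and Gstm1 (32.4 to 52.9 CPM) and the NRF2 target Nqo1 (13.0 to 25.3 CPM) rose. Gstm genes are close paralogs, so reads between them are uncertain. Hmox1, the heme oxygenase, did not pass the test (log2 fold change -0.28, adjusted P = 0.649). In lysosome and autophagy genes 6 of 47 were higher and 2 lower (12.8% higher and 4.26% lower, and 10 and 1 in the high code block, the lower count being 1 without vehicle tumor 1 or cotreated tumor 1, 2 or 3, 4 without cotreated tumor 4 and 5 without cotreated tumor 5), with Ulk1, a kinase that starts autophagy, rising from 28.2 to 39.0 CPM, and Glb1, the lysosomal beta-galactosidase, falling from 122 ± 5.02 to 86.7 ± 9.65 CPM (log2 fold change -0.50, adjusted P = 3.64e-06).

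Adora2a, which encodes the receptor that KW6002 blocks, was measured at 0.829, 0.844, 1.11, 0.661 and 0.717 CPM in vehicle and 0.416, 0.110, 0.443, 0.413 and 0.437 CPM in cotreated tumors, with 22 to 34 counts per vehicle tumor and 4 to 17 per cotreated tumor. The groups did not overlap (log2 fold change -1.19 ± 0.37, adjusted P = 0.0165). Adora2b, the low-affinity receptor of the same class, was measured at 18.1, 17.3, 13.8, 21.3 and 15.9 CPM in vehicle and 8.10, 7.58, 7.64, 11.3 and 8.95 CPM in cotreated tumors. It was lower in every cotreated tumor (log2 fold change -0.99 ± 0.13, adjusted P = 7.69e-06, difference from cisplatin -0.49 ± 0.13, adjusted P = 0.0249). Adora3 did not pass the test (log2 fold change 0.53, adjusted P = 0.105), and Adora1 was under the filter, at 0 to 82 counts per vehicle tumor and 1 to 15 per cotreated tumor. Of 14 genes of adenosine metabolism 3 were lower and 0 higher, 21.4% called beside 23.5% of all genes. The whole list of adenosine and platinum handling had 6 of 31 lower and 3 higher, and 3 and 2 in the high code block. Entpd1 (CD39) fell from 38.9 ± 2.31 to 27.9 ± 2.70 CPM (log2 fold change -0.48, adjusted P = 1.99e-04, difference from cisplatin -0.34 ± 0.09, adjusted P = 0.0227). Nt5e (CD73) fell from 13.1 ± 1.72 to 9.08 ± 2.40 CPM (log2 fold change -0.53, adjusted P = 0.00857), with overlapping groups.

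Carriers of platinum drugs had 3 of 14 higher and 1 lower, 28.6% called beside 23.5% of all genes. Slc31a1, the copper transporter CTR1 that takes up cisplatin, did not change past the threshold, at 78.5 to 95.6 CPM in vehicle and 79.9 to 91.2 CPM in cotreated tumors (log2 fold change 0.00 ± 0.05, adjusted P = 0.969). Its relative Slc31a2 rose from 31.8 ± 3.31 to 47.0 ± 6.12 CPM (log2 fold change 0.56, adjusted P = 1.70e-04). The efflux pump genes Abcb1b (45.5 to 64.0 CPM) and Abcg2 (17.5 to 23.5 CPM) rose, and Abcc1 fell from 253 ± 14.8 to 199 ± 10.8 CPM (log2 fold change -0.35, adjusted P = 0.00310), a change under the fold limit without cotreated tumor 2 (-0.31). The copper pump Atp7a did not pass the thresholds (log2 fold change -0.29, adjusted P = 0.0224). Slc47a1 and Abcc2, carriers known from the kidney, were under the filter. Slc47a1 had 1 to 3 counts per vehicle tumor and 1 to 7 per cotreated tumor, and Abcc2 had 1 to 4 and 0 to 8.

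Markers of vessels and of some leukocytes were lower in cotreated tumors. Of 16 endothelial markers, 10 were lower and 1 higher (Lyve1), and their summed level was 359.8 to 479.9 CPM in vehicle and 273 to 323 CPM in cotreated tumors. The genes named in this account of cell types were chosen after their values had been seen. Cdh5 (VE-cadherin) was measured at 40.9, 38.6, 63.9, 44.1 and 47.2 CPM in vehicle and 24.2, 17.1, 27.9, 19.6 and 20.3 CPM in cotreated tumors (log2 fold change -1.11 ± 0.16, adjusted P = 4.01e-05), and Pecam1 (CD31) fell from 63.1 to 35.8 CPM. Pericyte and smooth muscle markers had 8 of 9 lower, among them Rgs5 (47.2 ± 13.6 to 18.6 ± 2.97 CPM, log2 fold change -1.34, adjusted P = 3.94e-06). Mast cell markers had 3 of 7 lower.

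Macrophage markers split, with 4 of 14 higher and 3 lower, and their summed level overlapped, at 2663 to 3847 CPM in vehicle and 3118 to 4668 CPM in cotreated tumors. Chil3, a chitinase-like protein of monocytes and macrophages, was measured at 8.01, 9.70, 5.65, 4.82 and 5.38 CPM in vehicle and 29.9, 45.3, 30.9, 39.8 and 98.1 CPM in cotreated tumors (log2 fold change 2.87 ± 0.41, adjusted P = 5.76e-05). Cd163, a hemoglobin scavenger receptor, rose from 24.9 to 48.4 CPM, a call lost in 7 of 10 fits without a tumor and kept without vehicle tumor 2 or cotreated tumor 1 or 3 (adjusted P 0.0296 to 0.106). The summed level of natural killer markers was 17.4 to 26.8 CPM in vehicle and 42.3 to 56.7 CPM in cotreated tumors, and the only member higher was Klra4, of a family of close paralogs (13.9 ± 2.46 to 41.3 ± 5.03 CPM, log2 fold change 1.57, adjusted P = 1.52e-07). The rise of the sum rests on Klra4, at 10.4 to 16.7 CPM in vehicle and 34.6 to 45.6 CPM in cotreated tumors. The rest of the sum overlapped between the groups. The defining marker Ncr1 was measured at 0.385 to 1.24 CPM in vehicle and 0.275 to 0.614 CPM in cotreated tumors (log2 fold change -0.69, adjusted P = 0.191). Fibroblast markers overlapped in sum, at 2811 to 3379 and 2859 to 3396 CPM. For the labeled carcinoma line, Krt8 and Krt18 were present in all tumors, while other epithelial and lung markers were low or near 0. Krt19 had 44 to 107 counts, Cdh1 38 to 110 and the lung marker Napsa 125 to 228 in these 10 tumors, and Epcam, Sftpc and Scgb1a1 had no more than 3 counts in any of them.

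**Figure D4:**
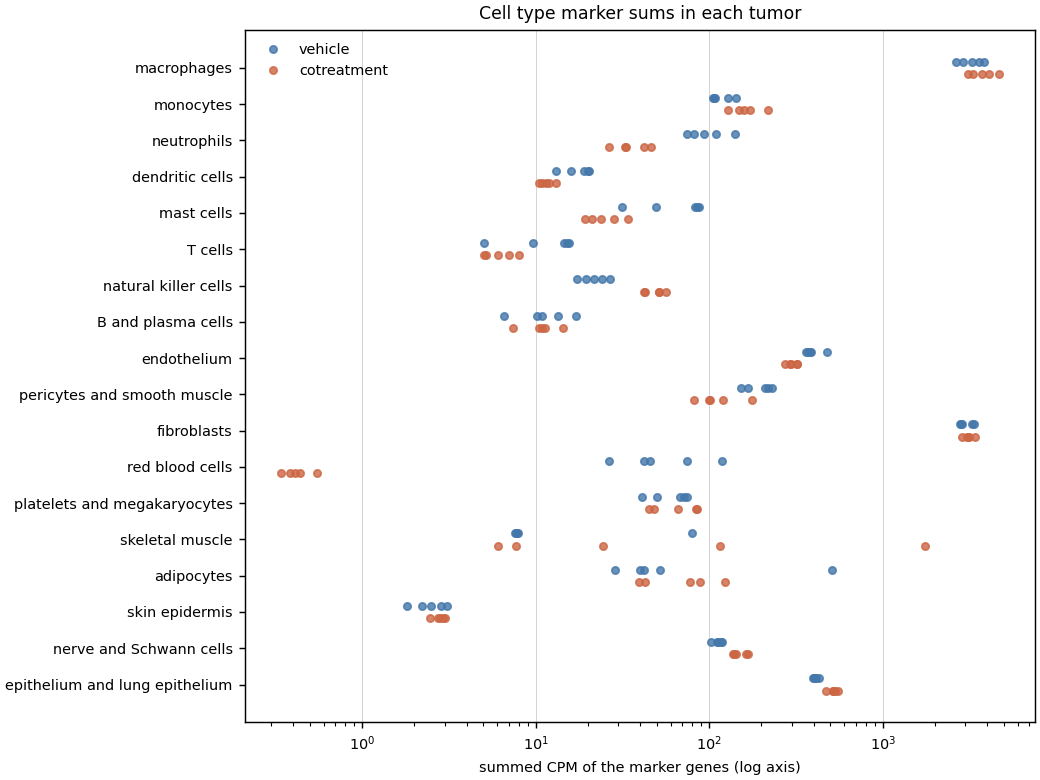
Summed CPM of the marker genes of 18 cell types in each vehicle and cotreated tumor, on a log axis. Red blood cell markers fall from 26.5 to 118 CPM in vehicle to under 1 CPM in cotreated tumors, endothelial sums do not overlap, and single tumors stand out for muscle and fat.

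Long noncoding genes were called higher more often than protein-coding genes. Of 1322 long noncoding genes tested, 393 were higher and 86 lower (36.2% called), with a median log2 fold change of 0.27, whereas 1631 of 13694 protein-coding genes were higher and 1581 lower (23.5% called, median -0.03). In each cotreated tumor the median level of long noncoding genes lay 0.21 to 0.30 (log2) above the vehicle mean, and in vehicle tumors it lay between -0.05 and 0.04. Weakly expressed genes of both classes had higher medians than strongly expressed ones, as the plot of gene classes shows. With that offset for GC content and length 371 long noncoding genes were higher and 104 lower, and within the high code block 133 and 33. After cisplatin alone the median was 0.13, and after KW6002 alone 0.02, against the same vehicle tumors. The strand option of the counting is not given in the sources used here, so it is uncertain whether reads of antisense genes were kept apart from those of their partners.

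**Figure D5:**
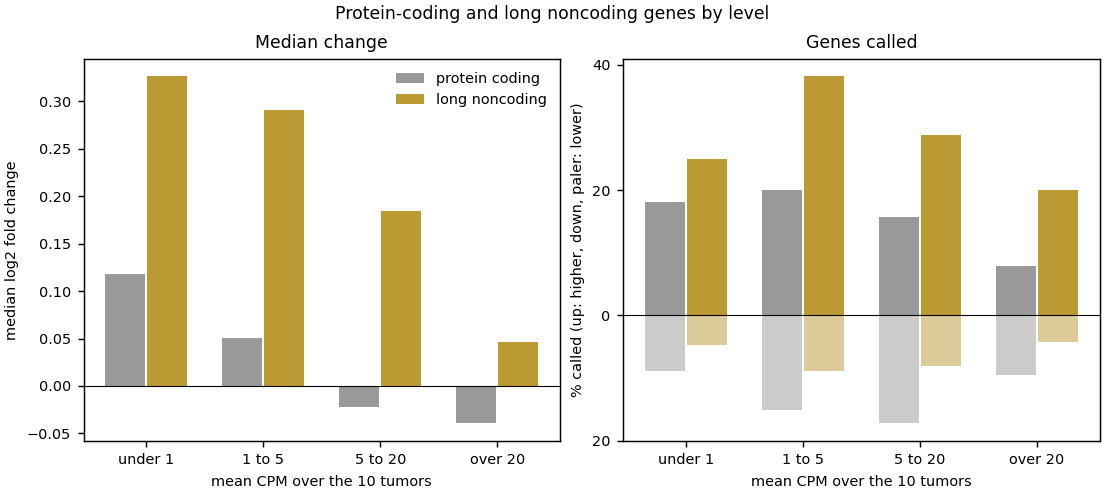
Median log2 fold change (left) and percentage called higher and lower (right) for protein-coding and long noncoding genes in bins of mean CPM, in 5 cotreated against 5 vehicle tumors. The median of long noncoding genes is above that of protein-coding genes in each bin.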

How the data were processed

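RNA was sequenced from 20 LLC1 tumors, 5 each given vehicle, cisplatin, KW6002 or both drugs. Per the labels and methods, poly(A) RNA was made into stranded TruSeq libraries, read from one end over 50 bases, demultiplexed with bcl2fastq 2.17.1.14 and aligned to mm10 with STAR, and the authors counted uniquely aligned reads per gene with HTSeq-count 0.6.1p1. The strand option and the doses of the tumor arms are not given in the sources used here. The deposited values are whole-number read counts per gene, not normalized. Gene symbols and spans are from the GENCODE annotation of GRCm38, and promoters are from RefSeq (GRCm38.p6). The labels do not say whether each tumor came from its own mouse, and P values measure the spread between these tumors.

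Counts of all 20 tumors were fitted in edgeR 4.0.16 (R 4.3.3) with its low-count filter by group (16665 of 35226 genes, 99.9% of counts), TMM scaling and the robust quasi-likelihood test, 1 coefficient per treatment. P values were adjusted by the Benjamini-Hochberg method over all genes tested, and a gene was called at an adjusted P under 0.05 and an absolute log2 fold change of at least 0.32. CPM values use TMM library sizes. Errors of log2 fold changes are standard errors derived from the test, as the absolute log2 fold change over the square root of its F statistic. Those of CPM are SD (n = 5). Fold bounds use a floor of 3 counts per tumor, which covers counting error only. The script was tested on simulated data with known changes.

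Genes were counted over 34 lists with 1463 members, of which 1383 were tested (7 had no row and the rest were under the filter), and over 18 lists of cell markers. Named genes were the 10 with the largest fold change and the 10 with the largest difference in CPM in each direction, counting only genes that averaged 50 or more reads and whose groups did not overlap, up to 4 called members with the smallest adjusted P per role and direction in each list, and key genes of the drugs. Isg15, Rsad2, Klf9, Pdk4, Per1, Csf3, S100a8 and the cell markers named were added after their values were seen. Some genes are not reported here. The groups compared, the lists and their members were chosen with earlier results of these data known. Alternatives were other scalings, filters and tests (limma 3.58.1 voom, DESeq2 1.42.0), block of library code numbers, replicate number as a block, an offset fitted to GC content and gene length, and each tumor left out. Same-numbered tumors of both groups had correlations of -0.14 to 0.17, with 3 of 5 over 0.1, and were not treated as pairs.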

Additional observations from a re-analysis of the deposited data

Results flagged for a closer look

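In 226 groups of 5 values (18 marker sums, 34 list medians and 61 named genes, each in vehicle and in cotreated tumors), 17 had 1 tumor far from the other 4 by Dixon's criterion (gap over range above 0.71), and chance alone flags about 1 in 20 groups. Several of these values were levels of endothelial, muscle or fat markers. Vehicle tumor 3 had a summed endothelial marker level of 479.9 CPM (others 359.8 to 389 CPM) and a summed skeletal muscle level of 79.3 CPM (others 7.60 to 7.87 CPM). Cotreated tumor 4 had a muscle level of 1749 CPM (others 6.08 to 115 CPM), and Ampd1, a muscle gene, was at 10.7 CPM there (others 0.718 to 1.29 CPM). Vehicle tumor 2 had a summed adipocyte level of 508 CPM (others 28.8 to 52.2 CPM), the lowest median of DNA replication genes (-0.11 in log2 CPM relative to vehicle, others 0.00 to 0.04) and the highest Hif3a (0.492 CPM, others 0.104 to 0.196 CPM) and Zbtb16 (0.844 CPM, others 0.131 to 0.261 CPM).

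The red blood cell gene Alas2 was at 8.97 CPM in vehicle tumor 4 (others 1.55 to 3.59 CPM) and at 0.0624 CPM in cotreated tumor 5 (others 0 CPM), the latter from 2 reads. Cotreated tumor 4 was also highest for the myeloid genes Hcar2 (3.69 CPM, others 0.165 to 1.17 CPM) and S100a9 (10.7 CPM, others 2.29 to 4.26 CPM) and for Myc (313 CPM, others 222 to 245 CPM). Cotreated tumor 1 was highest for Neat1 (4491 CPM, others 2636 to 2931 CPM) and Atp7a (29.2 CPM, others 23.5 to 24.8 CPM). Adora2a was lowest in cotreated tumor 2 (0.110 CPM, others 0.413 to 0.443 CPM), and Il6 was highest in vehicle tumor 1 (2.66 CPM, others 0.620 to 1.18 CPM).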

How the results depend on the processing

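The 3914 genes called between cotreated and vehicle tumors were 3887 with RLE scaling, 3902 with upper quartile scaling, 3893 with limma voom, 3953 with DESeq2, 3821 with the code block as a term and 3327 to 4063 when a tumor was left out. Counts moved by over 1.5 times under 3 settings. A test against the fold limit called 1658 (999 higher, 659 lower), the high code block alone 2209 (1289 higher, 920 lower), and an adjusted P with no fold limit 5906 (2957 lower). With an offset fitted to GC content and gene length 4180 were called, and the share called higher went from 55.6% to 47.9%. With the replicate number as a block 3769 were called (2071 higher, 1698 lower), and 4 of the 10 tumors correlated best with their own number. The 667 genes called between cotreated and cisplatin tumors were 28 against the fold limit, 217 with those 10 tumors alone, 1 in the high code block alone, 1086 with no fold limit and 289 to 1013 when a tumor was left out. Of 350 called named genes, 177 kept the call and 0 reversed under all 24 alternatives, one of which, leaving out the tumors rich in fat or muscle, was chosen after seeing the data. The replicate block ended the call for 8 of them, the code block term for 28 and the high code block alone for 127. The test against the fold limit ended it for 145, and 62 lost it without some tumor. Among genes not called, the sign turned for Hmox1 in the high code block (0.51), for Trp53 with the code block term (-0.00217), for Ccnd1 over the tumors left out (-0.0713 to 0.026) and without both tumors (0.00773), and for Slc31a1 with RLE scaling (0.00811), no filter (0.0111), a minimum of 10 counts (0.0169), 10 tumors alone (0.00694), the code block term (0.00624), DESeq2 (0.00755), a tumor left out (-0.0237 to 0.0389) and without both tumors (0.0225). The cause of these shifts was not tested. At 28.8 to 41 M reads per tumor, genes under the low-count filter were left out of the test by choice, and with no filter 3715 of 35226 genes were called.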
